A study of Mytilus coruscus with 2 samples.

Results

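Peaks that the authors' annotation placed in an exon or in the downstream class made up 256 of the 3465 Nrf2 peaks (7.39% of the list) in the digestive gland of the thick shell mussel *Mytilus coruscus*. They were taken from the deposited peak table by their region class alone, whatever their height, and form 2 subgroups. The exon subgroup held 182 peaks near 166 genes (5.25% of all peaks, Wilson 95% interval 4.56% to 6.05%). The downstream subgroup held 74 peaks near 73 genes (2.14%, 1.70% to 2.67%). Together they lay nearest to 233 of the 2548 genes in the table. Digestive gland cells of healthy mussels, with no treatment given in the sources used here, yielded 1 ChIP library for Nrf2 and 1 library of input DNA. The ChIP library is the DNA recovered with a custom antibody against Nrf2, and the input is a part of the same cut chromatin kept back as its control. How many animals were pooled is not given in the sources used here. With 1 library of each kind there is no replicate error, no difference between classes could be tested over samples, and all intervals cover counting error only.

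Nrf2 is a transcription factor with a basic leucine zipper that pairs with small Maf proteins and binds antioxidant response elements. In vertebrates its repressor Keap1 holds it back until oxidative or electrophilic stress releases it, and its classic targets encode enzymes of glutathione supply, quinone reduction and heme breakdown. Chromatin immunoprecipitation followed by sequencing (ChIP-seq) recovers such bound DNA. A peak is a stretch where ChIP fragments pile up above the input. An exon peak has its summit in a part of the gene that is kept in the mature transcript, and a downstream peak has it just past the end of the gene. The digestive gland of mussels digests food and handles many contaminants taken up by filter feeding. A peak position does not measure expression, so the tissue label could not be checked against marker genes.

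Every exon and downstream summit lay on the far side of the transcription start site (TSS) of its gene, as the class names require. The smallest distance was 111 bp for exon peaks and 673 bp for downstream peaks. Exon borders and gene ends are not in the peak table, so the classes could not be rebuilt, and how far beyond a gene the downstream class reaches is not given in the sources used here. Names are the best matches of each mussel gene in other species and may not describe its function. Positions are 1-based on the authors' unpublished genome.

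The fold enrichment of both subgroups was close to that of the whole list. Fold enrichment is the height of the ChIP pileup at the summit over the local background that the peak caller takes from the input. Its median was 4.57 in exon peaks, with quartiles of 3.95 and 5.39 and a range of 2.17 to 9.34. In downstream peaks it was 4.68, with quartiles of 3.78 and 5.64 and a range of 1.79 to 13.5. The medians of the other classes were 4.84 in introns, 4.53 in promoters and 4.48 in intergenic regions, and that of all peaks was 4.63. An enrichment of at least 5-fold was reached by 58 exon peaks (31.9%, 25.5% to 39.0%) and 30 downstream peaks (40.5%, 30.1% to 51.9%), beside 39.8% of all peaks. At least 8-fold was reached by 5 exon peaks (2.75%, 1.18% to 6.27%) and 4 downstream peaks (5.41%, 2.12% to 13.1%), beside 6.18% of all peaks. No exon peak was above 9.34-fold. The highest was at 16.5-fold among 251 promoter peaks, 33.9-fold among 1556 intron peaks and 36.8-fold among 1402 intergenic peaks. The highest fold of a class also depends on how many peaks it holds. A −log10 q of at least 3 was held by 128 exon peaks (70.3%) and 53 downstream peaks (71.6%), beside 74.2% of all peaks.

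**Figure D1:**
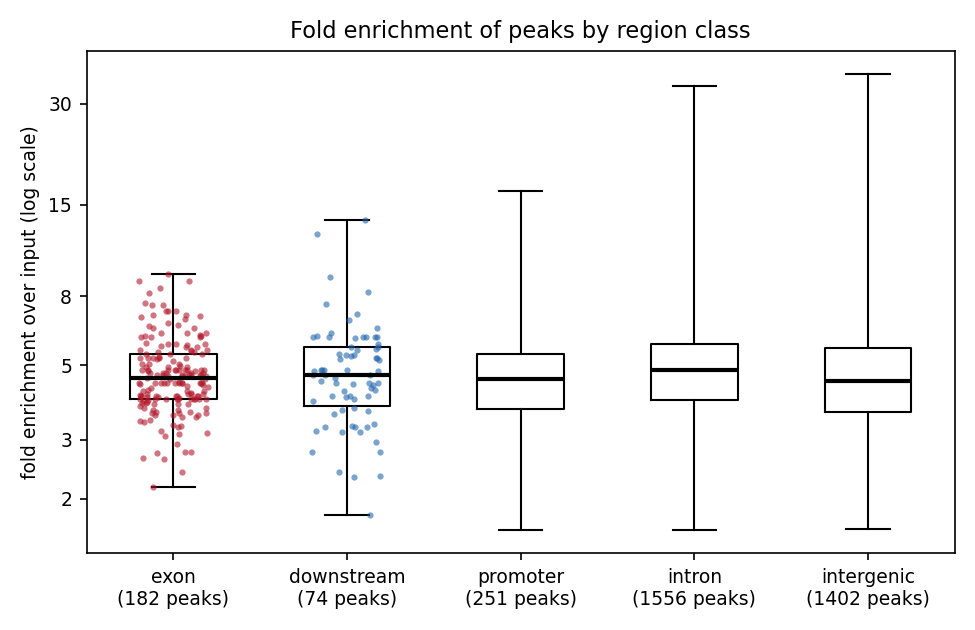
Fold enrichment over the input (log axis) of the peaks in each region class. Boxes give the quartiles with the median as a thick line, whiskers reach the lowest and highest peak, and points are the single exon (red) and downstream (blue) peaks. The medians of the 5 classes lie between 4.48 and 4.84, and the exon class ends at 9.34.

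Most of these peaks rest on few fragments. The median pileup was 14 fragments in exon peaks and 14 in downstream peaks, against 16 in all peaks. A pileup of 20 or fewer was found in 80.2% of exon peaks (73.8% to 85.4%) and 68.9% of downstream peaks (57.7% to 78.3%), against 67.3% of all peaks. The median length was 294 bp in exon peaks and 295.5 bp in downstream peaks, against 311 bp in all peaks. The background of each peak was derived as (pileup + 1) / fold. Its median was 2.85 fragments in exon peaks, 3.30 in downstream peaks and 3.26 in all peaks. At the lowest value of the table, 2.48, lay 43 exon peaks (23.6%) and 20 downstream peaks (27.0%), beside 24.5% of all peaks. Over this lowest background the fold is fixed by the pileup alone, which is why the same values recur among different genes. A pileup of 10 gave 4.43-fold in 11 exon and 3 downstream peaks, a pileup of 11 gave 4.84-fold in 8 and 4, and a pileup of 14 gave 6.05-fold in 3 and 6. Peaks that differ by a single fragment of pileup cannot be ranked by these values.

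**Figure D2:**
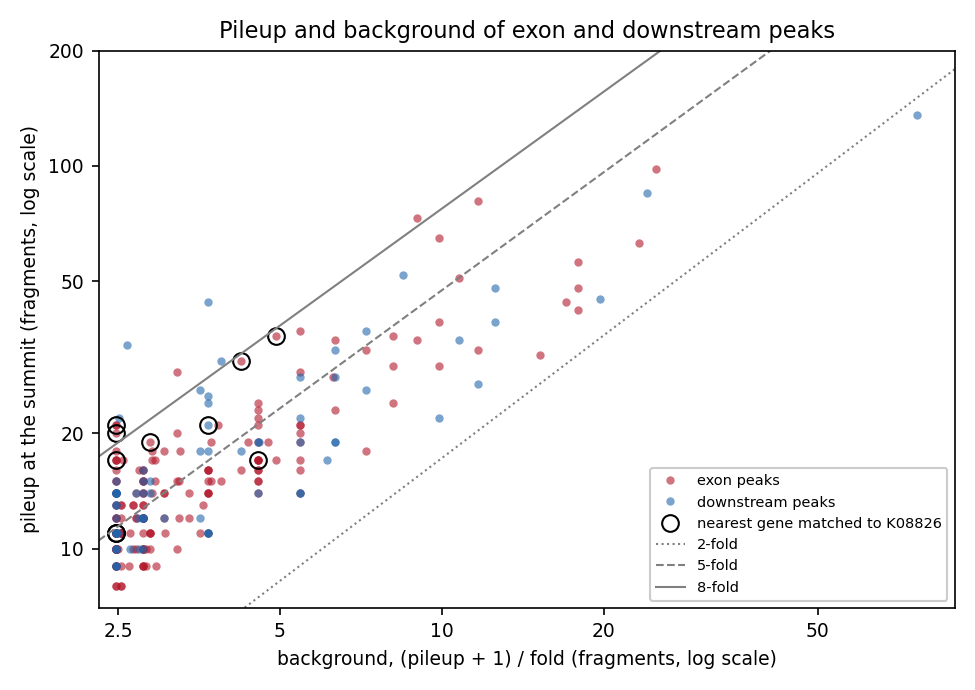
Pileup at the summit against the background, (pileup + 1) / fold, both in fragments on log axes, for the 182 exon (red) and 74 downstream (blue) peaks. Lines mark 2-fold, 5-fold and 8-fold, and black circles mark peaks whose gene was matched to the KEGG entry K08826. The column of points at the left edge is the lowest background of 2.48.

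The exon peaks with the highest folds belonged to a few genes, several without a known product. The first was in M.coruscus_chr5_0732 (chromosome 5, 30664012 to 30664886), a gene with no match in any of the 4 databases, at 9.34-fold with a pileup of 29, 9473 bp from its TSS. Next came 2 peaks at 8.87-fold with a pileup of 21 each. One was in a gene matching ALMS1 (M.coruscus_chr2_3038, chromosome 2, 133790673 to 133791522), a protein of the base of cilia. The other was in M.coruscus_chr1_1073, described with its family below. M.coruscus_chr12_1850 of the same family followed at 8.47-fold. An agglutinin-like gene (M.coruscus_chr10_0123, chromosome 10, 4610120 to 4610796) had 8.22-fold with a pileup of 73, and the highest −log10 q of either subgroup, 38.9. These 5 are the exon peaks at 8-fold or more.

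Below 8-fold, the leading named exon genes covered several kinds of protein. Peaks of 7.26-fold lay in a gene matching the high-affinity choline transporter (M.coruscus_chr9_1232), which takes up choline for acetylcholine synthesis, and in one named in Swiss-Prot after cytosolic carboxypeptidase 2 (M.coruscus_chr12_0934), an enzyme that trims glutamate chains from tubulin. KEGG names that gene after a vacuolar sorting protein instead. Both peaks had a pileup of 17 over the lowest background. A gene matching the SH3 domain protein SH3YL1 (M.coruscus_chr6_0978) had 2 exon peaks of 7.06-fold and 4.39-fold. A titin- and hemicentin-like gene (M.coruscus_chr11_0008) had 6.67-fold with a pileup of 65. The gene matching Nup98-Nup96 (M.coruscus_chr4_0228), which encodes parts of the nuclear pore, had 6.54-fold. Enolase (M.coruscus_chr13_0061), an enzyme of glycolysis, had 6.12-fold.

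Among downstream peaks the 4 highest stood at 8-fold or more. The highest lay 4197 bp from the TSS of M.coruscus_chr11_0603 (chromosome 11, 25934396 to 25935029), which has no match in any database, at 13.5-fold with a pileup of 34. Second was a gene named TRIM33 in Swiss-Prot and TRIM71 in KEGG (M.coruscus_chr13_0074, chromosome 13, 3377145 to 3377350), both ubiquitin ligases of the tripartite motif family, at 12.3-fold with a pileup of 44. A gene matching rogdi (M.coruscus_chr7_2555) had 9.15-fold, although KEGG assigns that gene to septins. An aspartate beta-hydroxylase-like gene (M.coruscus_chr7_0904) had 8.22-fold. The named peaks after these belonged to genes matching epsin, a protein of clathrin-coated pits, in KEGG and a plastid protein in Swiss-Prot (M.coruscus_chr13_0108, 7.60-fold), the chaperonin subunit TCP1 alpha (M.coruscus_chr12_0488, 7.09-fold) and a very long-chain acyl-CoA synthetase (M.coruscus_chr8_0606, 6.81-fold), which activates fatty acids. Genes matching the metalloproteinase ADAM12 (M.coruscus_chr13_1913, 6.25-fold), alpha-galactosidase (M.coruscus_chr13_0202, 6.05-fold) and the alpha-1D adrenergic receptor (M.coruscus_chr8_2306, 6.05-fold) followed. The last value was shared by 6 downstream peaks, each with a pileup of 14. The others of the 6 lay near a codanin-1 match (M.coruscus_chr13_0713), a gene that KEGG names after protein Red (M.coruscus_chr4_0459) and the unnamed M.coruscus_chr12_1399 and M.coruscus_chr2_3270. Also among the 12 highest were a gene with an uncharacterized KEGG entry (M.coruscus_chr2_2914, 6.45-fold) and the unnamed M.coruscus_chr12_1984 (6.10-fold). At the other end, M.coruscus_chr6_0638 had the lowest fold of the subgroup, 1.79, with its highest pileup, 136, over a background of 76.6.

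Exon peaks lay closer to the TSS than intron peaks by share. Within the first 1 kb were 38 exon peaks (20.9%, 15.6% to 27.4%), against 3.02% of intron peaks (2.28% to 3.99%). The median distance was 7096 bp in exon peaks and 18842 bp in intron peaks. First exons begin at the TSS and the promoter class already takes the summits up to 93 bp past it, so position and class are not independent. The median distance of downstream peaks from the TSS was 9029 bp, which includes the whole length of the gene. The fold changed little along the gene. Its median was 4.56 in the 38 exon peaks within 1 kb, 4.63 in the 38 between 10 and 25 kb and 4.91 in the 8 beyond 100 kb. Of the exon peaks within 1 kb, 27 had a Swiss-Prot or KEGG name, against 34 of those between 10 and 25 kb.

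**Figure D3:**
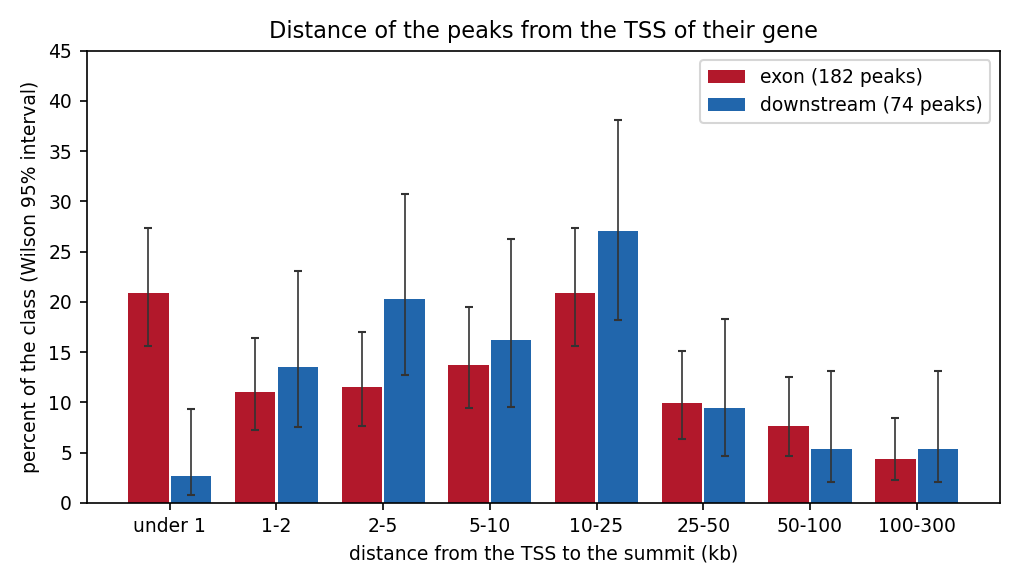
Percent of exon (red) and downstream (blue) peaks in bins of distance from the TSS to the summit in kb, with Wilson 95% intervals. The first kb holds 20.9% of exon peaks and 2.70% of downstream peaks, and the tallest downstream bar is 10 to 25 kb with 27.0%.

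Some genes with an exon peak within 1 kb of the TSS were picked by name after their values were seen, with no count made of their kind. FOXJ1-B (M.coruscus_chr12_0982), the forkhead factor that switches on motile cilia in vertebrates, had a 203 bp peak of 5.64-fold, 473 bp from its TSS. A gene matching the kinase PRP4B (M.coruscus_chr5_2824), which acts in splicing, had 4.68-fold at 256 bp. A match to the Bloom helicase (M.coruscus_chr2_1118) had 4.74-fold at 251 bp. The exon peaks nearest to a TSS, at 111 to 114 bp, were in an unmatched gene (M.coruscus_chr1_3684, 4.84-fold), a gene named PRRT1 in Swiss-Prot and xylosyltransferase 1 in KEGG (M.coruscus_chr6_2574, 2.75-fold) and a gene of the tripartite motif family (M.coruscus_chr7_0027, 3.38-fold).

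The genes of the 2 subgroups differed in how often they carried a name. A Swiss-Prot or KEGG name was found for 158 exon peaks (86.8%, 81.1% to 91.0%) and 44 downstream peaks (59.5%, 48.1% to 69.9%), against 89.1% of intron, 68.9% of promoter and 62.9% of intergenic peaks. An InterPro domain was listed for 62.6% of exon peaks (55.4% to 69.3%) and 44.6% of downstream peaks (33.8% to 55.9%). The share was 87.1% in intron peaks (85.4% to 88.7%), 60.6% in promoter, 61.0% in intergenic and 72.4% in all peaks. The exon share was thus close to those of promoter and intergenic peaks. No match in any of the 4 databases was found for 11 exon peaks (6.04%) and 17 downstream peaks (23.0%). The same share was 4.63% in intron, 14.3% in promoter and 17.7% in intergenic peaks. The median fold of exon peaks was 4.43 with a name and 4.82 without, and that of downstream peaks was 5.01 with a name and 4.43 without. The peaks on top of both subgroups are among the unmatched ones, so part of the strongest signal cannot be tied to a function here.

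Genes matched to a single KEGG entry held much of the upper end of the exon subgroup, and they were picked out after their values were seen. KEGG assigns 20 peaks of 10 genes to K08826, homeodomain-interacting protein kinase, through a hypothetical lancelet protein. The e-value of that match ranged from 3e-47 to 1e-07, and was weakest in M.coruscus_chr1_1073 and M.coruscus_chr1_2207. None of the 10 genes has a Swiss-Prot name or an InterPro domain, so no kinase domain is recorded for them. They are called K08826-matched genes, or a family for short, and whether they form a true family was not tested. In vertebrates, kinases of that name are nuclear and phosphorylate transcription factors and p53. Of the 20 peaks, 8 were exon peaks and 2 were downstream peaks. The 8 exon peaks lay in 5 genes and had folds from 3.95 to 8.87 with a median of 7.39, beside 4.43 in the other 174 exon peaks. At least 5-fold was reached by 6 of these 8 peaks and by 52 of the other 174, beside 39.8% of all peaks. Over all 20 peaks of K08826-matched genes it was reached by 13. Of the 8 exon peaks, 3 lie in M.coruscus_chr1_1073. The genes were picked with these values known, so the difference is no separate evidence about them. Peaks of the same genes in other classes had medians of 6.78 in introns (2 peaks), 5.04 in promoters (5 peaks) and 4.09 in intergenic regions (3 peaks).

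M.coruscus_chr1_1073 on the plus strand of chromosome 1 carried 4 of these peaks in a row between 43415555 and 43417779. Its exon peaks lay 328, 1095 and 1694 bp from the TSS, with folds of 7.26, 4.84 and 8.87 and pileups of 17, 11 and 21. The downstream peak followed at 2319 bp with 4.84-fold and a pileup of 11. All 4 stood over the lowest background of 2.48, and neighbouring summits were 599 to 767 bp apart, from 328 bp past the TSS to beyond the annotated end of the gene. M.coruscus_chr3_3034 had exon peaks of 6.97-fold and 7.56-fold at 164 and 2176 bp. M.coruscus_chr12_1850 had 1 exon peak of 8.47-fold that was 1193 bp long. M.coruscus_chr8_0440 had an exon peak of 7.53-fold, 1078 bp long, and an intron peak of 8.30-fold. M.coruscus_chr8_0741 had the lowest exon peak of the family, 3.95-fold, and a promoter peak of 5.04-fold. The downstream peak of M.coruscus_chr9_0585 had 6.0-fold. The TrEMBL best match was shared by 4 of these genes (M.coruscus_chr1_1073, M.coruscus_chr8_0741, M.coruscus_chr9_0585 and M.coruscus_chr12_1850) and another was shared by M.coruscus_chr3_3034 and M.coruscus_chr8_0440. Genes with the same best match may share reads that map to more than 1 of them. The authors kept uniquely mapped reads, and how far these genes share sequence was not tested.

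Genes with an exon or downstream peak were compared for peaks of other classes. Of the 166 exon genes, 120 (72.3%, 65.0% to 78.5%) had exon peaks only. Intron peaks were also found in 33 of them, promoter peaks in 9 and intergenic peaks in 8. Of the 73 downstream genes, 54 (74.0%, 62.9% to 82.7%) had no peak of another class. The same share was 75.2% of promoter genes (69.2% to 80.4%), 91.1% of intron genes (89.3% to 92.6%) and 91.6% of intergenic genes (89.8% to 93.1%). Over all 2548 genes, 94.1% had peaks of a single class. That value counts each gene once, while a gene with peaks of several classes enters the share of each of them. It is therefore no baseline for the class shares. Most peaks are intron or intergenic, so the share of a class also depends on its size. A single exon peak was the rule, in 152 of the 166 genes, and a single downstream peak in 72 of 73. Genes with more than 1 peak of these classes numbered 19 of 233 and held 42 of the 256 peaks. In 16 of the 19, neighbouring summits came within 3 kb. Another peak of any class lay within 2 kb of 37 exon peaks (20.3%) and 14 downstream peaks (18.9%), beside 19.8% of all peaks.

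**Figure D4:**
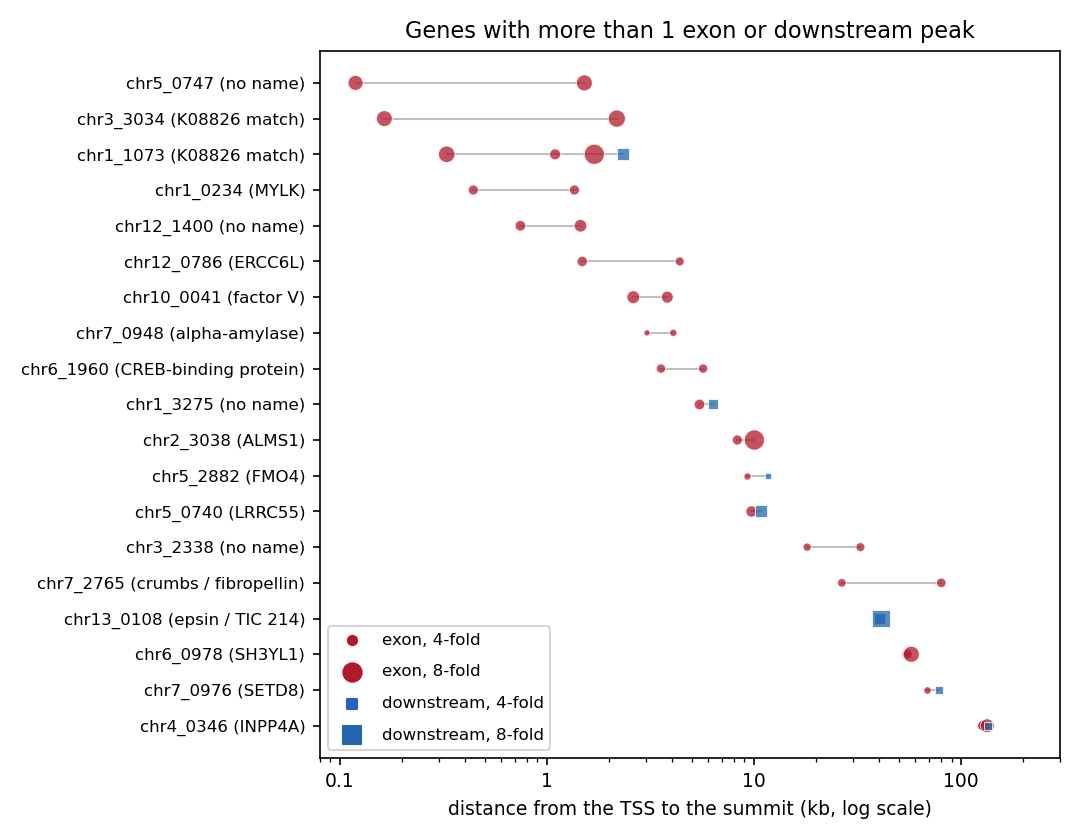
The 19 genes with more than 1 exon or downstream peak, 1 gene a line, by distance of each summit from the TSS in kb (log axis). Red circles are exon peaks and blue squares downstream peaks, and the area of a symbol grows with the square of the fold. M.coruscus_chr1_1073 carries 4 peaks between 328 and 2319 bp, and M.coruscus_chr4_0346 carries 4 between 126897 and 135259 bp.

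Exon and downstream peaks met in 6 genes. The one with the most peaks was a gene matching inositol polyphosphate-4-phosphatase, INPP4A (M.coruscus_chr4_0346, minus strand of chromosome 4), an enzyme that removes a phosphate from signalling lipids made by PI3-kinases. Its exon peaks lay 126897, 127881 and 133938 bp from the TSS with folds of 4.44, 4.63 and 6.05 and pileups of 14, 16 and 14. Its downstream peak, at 135259 bp, had 3.27-fold and a pileup of 11, and 2 intron peaks had 6.85-fold and 5.05-fold. All 4 exon and downstream peaks of this gene sat toward its far end. M.coruscus_chr5_0740, matching the leucine-rich repeat protein LRRC55, had 4.98-fold in the exon and 5.57-fold downstream. A SETD8-like histone methyltransferase gene (M.coruscus_chr7_0976) had 3.29-fold and 3.16-fold, and the unnamed M.coruscus_chr1_3275 had 4.68-fold and 4.43-fold. The flavin monooxygenase FMO4 (M.coruscus_chr5_2882) is described with the redox genes, and M.coruscus_chr1_1073 above.

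Other genes had 2 exon peaks each. In the ALMS1-like gene the second exon peak had 4.43-fold, and an intron peak had 6.48-fold. A gene matching smooth muscle myosin light chain kinase (M.coruscus_chr1_0234), which starts contraction by phosphorylating myosin, had 2 peaks of 4.43-fold at 441 and 1358 bp. A coagulation factor V-like gene (M.coruscus_chr10_0041) had 5.68-fold and 5.26-fold at 2615 and 3813 bp. The unnamed M.coruscus_chr5_0747 had 6.58-fold and 7.02-fold at 119 and 1517 bp, and its promoter peak was higher, at 13.4-fold. A CREB-binding protein-like gene (M.coruscus_chr6_1960), named after a histone acetyltransferase that many transcription factors recruit, had 4.09-fold in both. ERCC6L (M.coruscus_chr12_0786) had 4.56-fold and 3.95-fold. In a crumbs- and fibropellin-like gene (M.coruscus_chr7_2765) the summits were 53728 bp apart, at 3.82-fold and 4.18-fold. Among genes without a name, M.coruscus_chr12_1400 had 4.68-fold and 5.55-fold, and M.coruscus_chr3_2338 had 3.95-fold and 3.60-fold.

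Kinases and phosphatases were the largest function list among exon peaks. Lists were made by matching words in the Swiss-Prot and KEGG names, and shares are of the named peaks: 158 exon, 44 downstream and 2643 of all. The list held 30 exon peaks of 24 genes (19.0%, 13.6% to 25.8%) and 7 downstream peaks (15.9%, 7.93% to 29.4%), beside 9.57% of all named peaks (8.51% to 10.8%). Median folds were 4.53 in exon peaks and 4.84 in downstream peaks, beside 4.68 in all. Of the 30, 8 were peaks of K08826-matched genes and 3 were in ankyrin-1-like genes that KEGG names after a regulatory subunit of protein phosphatase 6 (M.coruscus_chr11_0803, 6.23-fold, M.coruscus_chr7_0424, 4.81-fold, and M.coruscus_chr12_0169, 4.22-fold). Further members meet the words in a single database or inside another name. M.coruscus_chr1_0190 is named after A-kinase anchor protein 7 in KEGG. KEGG gives other names to M.coruscus_chr2_0489 (proteoglycan 4), M.coruscus_chr5_2482 (mucin-1) and M.coruscus_chr13_2027 (a mediator subunit), and Swiss-Prot to M.coruscus_chr3_1008 (zonadhesin). M.coruscus_chr12_0795 meets them as a tetraphosphatase. The words miss the DDR2 kinase matches described below. Without K08826-matched genes the shares were 14.7% of exon peaks (9.89% to 21.2%) and 11.9% of downstream peaks (5.19% to 25%), beside 8.88% of all. With Swiss-Prot names alone they were 13.2% and 10.7%, beside 7.01%. An InterPro protein kinase domain was listed for 7 of the 114 exon peaks with InterPro data (6.14%, 3.01% to 12.1%) and 0 of 33 downstream peaks, which allows a share of up to 9.09% as 3 counts of the total (Wilson upper bound 10.4%), beside 2.95% of all. The list also holds a match to ATM (M.coruscus_chr9_0781, 4.93-fold), the kinase that signals DNA double-strand breaks, one to TAO1 (M.coruscus_chr7_0720, 4.30-fold), a kinase upstream of stress-activated MAP kinases, and an alkaline phosphatase (M.coruscus_chr13_1385, 3.67-fold).

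The lowest exon folds of that list belonged to 3 genes matching the testis-specific kinase TSSK3, all with exon peaks within 152 to 455 bp of the TSS. Their folds were 2.64 (M.coruscus_chr1_2680), 2.75 (M.coruscus_chr1_0838) and 2.91 (M.coruscus_chr1_2683). Pileups were 44, 63 and 33 over backgrounds of 17.0, 23.2 and 11.7. These peaks combined a high pileup with a high background. The 3 genes share their TrEMBL best match, and M.coruscus_chr1_2680 and M.coruscus_chr1_2683 had summits 10604 bp apart. Also alike were 2 genes matching the collagen receptor kinase DDR2 on chromosome 2 (M.coruscus_chr2_0176 and M.coruscus_chr2_0177). Their exon peaks had 4.68-fold and 5.04-fold, 25969 and 25907 bp from each TSS, and were 36572 bp apart.

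Extracellular matrix and adhesion came second in the exon subgroup. The list held 21 exon peaks of 20 genes (13.3%, 8.86% to 19.5%) and 3 downstream peaks (6.82%, 2.35% to 18.2%), beside 7.91% of all named peaks (6.94% to 9%). With Swiss-Prot names alone the exon share was 6.14% (3.01% to 12.1%), beside 4.87% of all. Its members were led by the titin- and hemicentin-like gene (M.coruscus_chr11_0008, 6.67-fold). Next came a gene that KEGG names mucin-5B (M.coruscus_chr14_0025, 6.12-fold), a titin homolog by KEGG name (M.coruscus_chr7_2741, 6.05-fold) and a gene that KEGG names after protocadherin Fat 4 (M.coruscus_chr10_2368, 5.73-fold). Swiss-Prot gives each of these 3 genes an unrelated name. Others matched protocadherin Fat 4 in both databases (M.coruscus_chr3_3090, 4.84-fold), a giant cell adhesion protein, SCO-spondin in Swiss-Prot (M.coruscus_chr2_3060, 5.19-fold, and M.coruscus_chr2_3064, 2.40-fold) and collagen XVIII in KEGG (M.coruscus_chr6_0369, 3.60-fold). Among the downstream members were the ADAM12-like gene and a gene named mucin-22 in Swiss-Prot and reticulon-3 in KEGG (M.coruscus_chr5_0899, 5.40-fold). Many entries of this list are mucins by KEGG name, and often Swiss-Prot gives the same gene another name. Its words miss exon peaks in an aggrecan match (M.coruscus_chr13_0257, 4.74-fold) and in a gene that Swiss-Prot names papilin (M.coruscus_chr3_2197, 4.43-fold).

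Receptors took 12 exon peaks (7.59%, 4.40% to 12.8%) and 4 downstream peaks (9.09%, 3.59% to 21.2%), beside 8.21% of all named peaks. At the top, at 6.05-fold, was the exon peak of a gene matching vomeronasal and calcium-sensing receptors (M.coruscus_chr3_1326). The downstream peak of the alpha-1D adrenergic receptor match had the same fold. The titin homolog M.coruscus_chr7_2741 (6.05-fold) and M.coruscus_chr10_2279 (5.40-fold) meet the list only by the word interphotoreceptor in their KEGG names. M.coruscus_chr4_1689 (3.51-fold) meets it by the KEGG name of a nuclear receptor co-repressor. The list thus also holds genes that are not named as receptors. A gustatory receptor by KEGG name (M.coruscus_chr3_2727) had 5.55-fold downstream, and an adhesion G protein-coupled receptor by KEGG name (M.coruscus_chr10_2597) had 5.53-fold in the exon. Lower in the list were genes matching the neuropeptide FF receptor (M.coruscus_chr3_2128, 4.63-fold) and the orexin receptor (M.coruscus_chr1_0177, 3.08-fold), both receptors for neuropeptides, in exons. A Notch1-like gene (M.coruscus_chr11_2225), a receptor for signals between touching cells, had a downstream peak of 2.34-fold with a pileup of 45, 183144 bp from the TSS. Zinc finger and transcription factor words matched 14 exon peaks (8.86%) and 3 downstream peaks (6.82%), beside 5.11% of all, but 8 of the 14 and 2 of the 3 are K08826-matched genes, which meet the word homeodomain. Without those genes the shares were 4.00% of exon peaks (1.85% to 8.45%) and 2.38% of downstream peaks, beside 4.38% of all. The exon peaks left were led by FOXJ1-B at 5.64-fold and by zinc finger genes at 5.48-fold (M.coruscus_chr5_2906) and 5.24-fold (M.coruscus_chr8_1127).

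Channels and transporters held 3 exon peaks (1.90%, 0.648% to 5.43%) and 1 downstream peak (2.27%, 0.402% to 11.8%), beside 4.77% of all named peaks (4.02% to 5.65%). Both intervals contain that share. The exon members were the choline transporter, a noradrenaline transporter-like gene (M.coruscus_chr5_0313, 4.43-fold) and a TRPM8 channel-associated factor by Swiss-Prot name (M.coruscus_chr4_0480, 4.43-fold). Ubiquitin, SUMO and TRIM genes held 3 exon peaks (1.90%, 0.648% to 5.43%) and 1 downstream peak (2.27%, 0.402% to 11.8%), beside 4.46% of all, which both intervals contain. The downstream one is the TRIM33-like peak of 12.3-fold, and the highest exon one lay in a gene matching the SUMO protease SENP1 in KEGG (M.coruscus_chr3_2914, 4.83-fold). Vesicle traffic and small GTPases held 7 exon peaks (4.43%) and 3 downstream peaks (6.82%), beside 3.10%. A gene matching a coatomer subunit (M.coruscus_chr10_1180), part of the coat of Golgi vesicles, had 5.14-fold in the exon. Among them was also the longest peak of either subgroup, 2336 bp with a pileup of 98 and 3.96-fold, in a gene matching the Arf GTPase-activating protein AGAP2 (M.coruscus_chr11_2521).

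**Figure D5:**
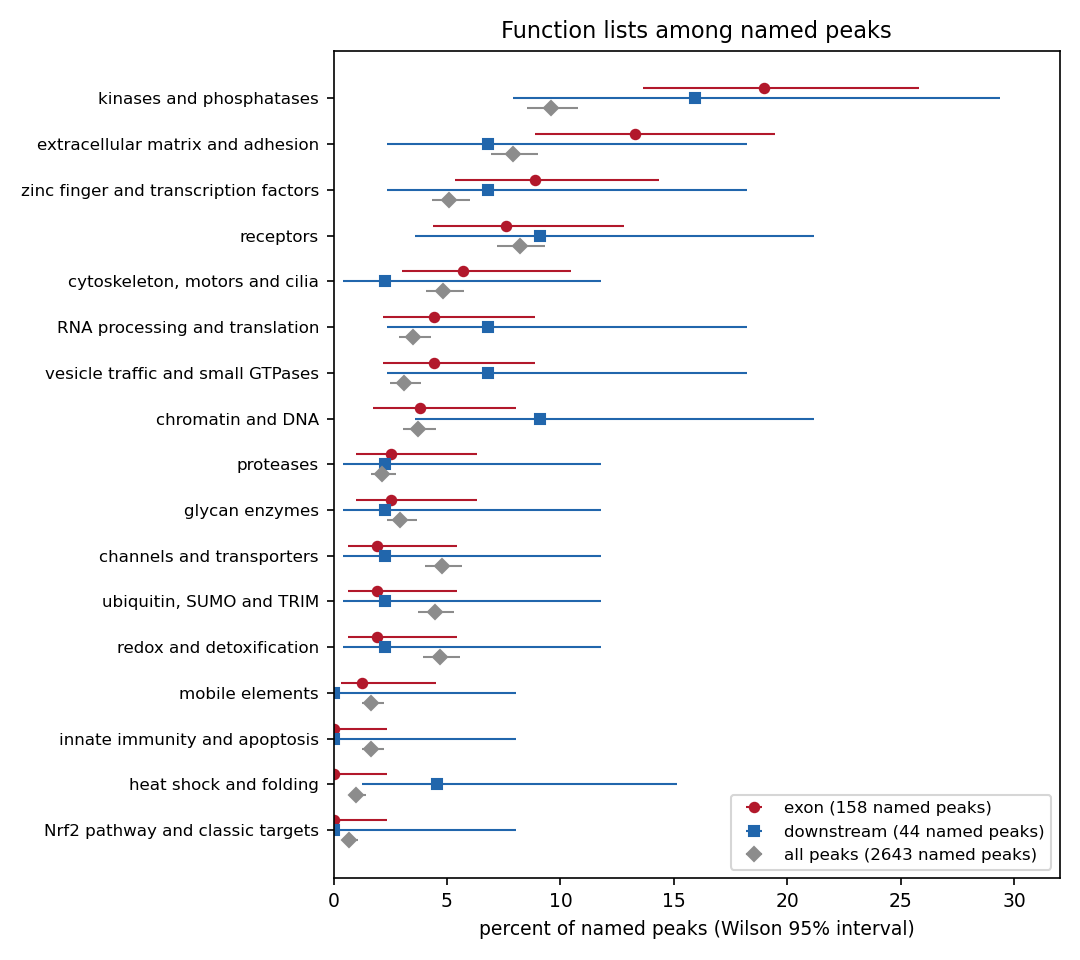
Percent of named peaks whose gene name matches each function list, for exon (red circles), downstream (blue squares) and all peaks (grey diamonds), with Wilson 95% intervals. Kinases and phosphatases stand at 19.0% of exon, 15.9% of downstream and 9.57% of all named peaks, and 8 of the 30 exon peaks in that list are of K08826-matched genes.

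The exon and downstream peaks of redox and detoxification genes, the families in which classic Nrf2 targets lie, all had folds under the median of all peaks. The list held 3 exon peaks (1.90%, 0.648% to 5.43%) and 1 downstream peak (2.27%, 0.402% to 11.8%), beside 4.69% of all named peaks (3.95% to 5.57%). Both intervals contain the share over all named peaks, so these counts do not show that the list is rarer here. The folds were 2.40 to 3.92, beside a median of 4.61 over the 124 peaks of the list. Both FMO4 peaks are among them, with 3.13-fold in the exon (pileup 30) and 2.40-fold downstream (pileup 27), 9249 and 11736 bp from the TSS. Flavin monooxygenases add oxygen to nitrogen- and sulfur-containing foreign compounds. A gene named in Swiss-Prot after ferric-chelate reductase 1 (M.coruscus_chr1_0458), which reduces iron at membranes, and in KEGG after an exosome subunit had 3.56-fold at 121 bp with a pileup of 8, the lowest pileup in the table. The last entry is named ZBED1, a zinc finger protein, in Swiss-Prot (M.coruscus_chr8_0082, 3.92-fold). It meets the list only by the KEGG entry it is assigned to, dehydrogenase/reductase SDR family member X. The Nrf2 pathway and its classic targets matched 0 exon and 0 downstream peaks, beside 18 of all named peaks (0.681%). As 3 counts of the total, these zeros allow a share of up to 1.90% of named exon peaks and 6.82% of named downstream peaks. The share over all named peaks lies below both limits, so the zeros do not show that these targets are rarer here. The Wilson upper bounds for these zeros are 2.37% and 8.03%. The words of the innate immunity and apoptosis list also matched 0 peaks in both, beside 44 of all named peaks (1.66%). That share too lies below these limits, and these words miss several immune genes of the exon subgroup. A gene matching the DNA sensor cGAS in both databases (M.coruscus_chr9_2571) had 4.93-fold, and another matching it in KEGG (M.coruscus_chr3_0432) had 4.43-fold. KEGG also names NLRC3 for M.coruscus_chr7_1720 (4.36-fold) and M.coruscus_chr8_0073 (3.96-fold) and the complement regulator CD55 for M.coruscus_chr2_0783 (5.05-fold).

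Glycan enzymes as a list held 4 exon peaks (2.53%) with a median of 2.97-fold and 1 downstream peak, beside 2.95% of all named peaks with a median of 4.84-fold. An alpha-amylase gene (M.coruscus_chr7_0948), whose product splits starch, had exon peaks of 2.74-fold and 3.18-fold with pileups of 48 and 56, both over a background of 17.9, and an intron peak of 3.47-fold. A chitinase-like gene (M.coruscus_chr4_0832) had 3.40-fold. The downstream member is the alpha-galactosidase match.

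Cytoskeleton, motor and cilia words matched 9 exon peaks (5.70%, 3.03% to 10.5%) and 1 downstream peak (2.27%), beside 4.84% of all named peaks. Of these, 3 exon peaks were in axonemal dynein heavy chains, the motors that bend cilia (M.coruscus_chr3_2959, 4.74-fold, M.coruscus_chr5_0678, 4.70-fold, and M.coruscus_chr5_2662, 4.00-fold). All 15 peaks that KEGG assigns to axonemal dynein heavy chains lay in exons or introns, 3 and 12. The downstream member matches DEUP1 (M.coruscus_chr3_2293, 4.03-fold), which builds centrioles in multiciliated cells. Further genes of cilia, picked by name after their values were seen, were ALMS1, FOXJ1-B and cytosolic carboxypeptidase 2 in exons and a hydrocephalus-inducing protein match (M.coruscus_chr2_2341, 5.24-fold) downstream.

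Chromatin and DNA words matched 6 exon peaks (3.80%, 1.75% to 8.04%) and 4 downstream peaks (9.09%, 3.59% to 21.2%), beside 3.71% of all named peaks. Exon members of the list included XRCC1 (M.coruscus_chr7_2916, 5.82-fold), the scaffold of single-strand break repair, and the Bloom- and Werner-like helicases (M.coruscus_chr2_1118, 4.74-fold, and M.coruscus_chr13_0438, 4.01-fold). The words miss 2 exon peaks that KEGG assigns to the DNA excision repair protein ERCC-4 (M.coruscus_chr3_0406, 4.84-fold, and M.coruscus_chr7_1421, 4.41-fold). They also miss the ERCC6L and CREB-binding protein-like genes described above. Downstream peaks lay near a SMUBP-2-like helicase gene (M.coruscus_chr4_2632, 5.18-fold) and near a second SETD8-like gene (M.coruscus_chr11_0686, 5.32-fold). RNA processing and translation held 7 exon peaks (4.43%) and 3 downstream peaks (6.82%), beside 3.52%. The leading downstream peaks lay near genes that KEGG names after a splicing factor (M.coruscus_chr13_1428, 5.76-fold) and a translation initiation factor (M.coruscus_chr2_0195, 5.35-fold). An argonaute gene (M.coruscus_chr12_0193), whose product carries small RNAs, had a downstream peak of 5.26-fold with a pileup of 37, and a gene matching the RNA helicase YTHDC2 (M.coruscus_chr8_0119) an exon peak of 4.56-fold with a pileup of 36.

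The remaining lists were small. Proteases held 4 exon peaks (2.53%) and 1 downstream peak (2.27%), beside 56 of all named peaks (2.12%). Among the exon peaks was one in a gene named trypsin-2 in Swiss-Prot and transmembrane protease serine 5 in KEGG (M.coruscus_chr2_2376, 6.22-fold). Heat shock and folding held 0 exon peaks, which allows a share of up to 1.90% as 3 counts of the total, and 2 downstream peaks (4.55%, 1.26% to 15.1%), beside 0.984% of all named peaks. These 2 were the TCP1 alpha peak of 7.09-fold and a canopy homolog (M.coruscus_chr7_0727, 3.34-fold). Mobile elements held 2 exon peaks (1.27%) and 0 downstream peaks, beside 1.66%. No list matched 62 named exon peaks (39.2%) and 13 named downstream peaks (29.5%), beside 40.0% of all.

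Genes of these classes shared their best TrEMBL match with another peak gene in 33 of 170 exon peaks (19.4%, 14.2% to 26.0%) and 10 of 55 downstream peaks (18.2%, 10.2% to 30.3%), against 10.6% of intron peaks (9.14% to 12.3%), 14.6% of intergenic peaks and 19.7% of promoter peaks. Across the 14 chromosomes exon peaks took from 2.80% of the peaks on chromosome 14 to 7.17% on chromosome 7. Downstream peaks took from 0.966% on chromosome 10 to 4.76% on chromosome 13. The interval of each of these 4 shares overlapped that of the whole list.

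Length and background went along with fold in the exon subgroup. Exon peaks of at least 500 bp (33 peaks) had a median of 4.93-fold, against 4.43-fold in the 149 shorter ones. In downstream peaks the medians were 4.58-fold in the 11 long and 4.68-fold in the 63 shorter peaks. The 43 exon peaks over the lowest background had a median of 4.84-fold, against 4.39-fold in the other 139. For the 20 downstream peaks over the lowest background it was 5.04-fold, against 4.44-fold in the other 54. The background enters the fold as its divisor, so this relation is partly set by how the fold is made.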

How the data were processed

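Chromatin from digestive gland cells was measured in 1 Nrf2 ChIP library and 1 input library, grouped by their titles. According to the submitters' notes and the study's methods, the authors used Trimmomatic 0.36 for read trimming, FastQC for quality, Bowtie2 2.5.1 for alignment to an unpublished *M. coruscus* genome with unique reads kept, MACS3 3.0.0a7 for peak calling against the input, and HOMER for annotation. The q threshold and duplicate handling were not given in the sources used here. A deposited peak annotation gives the signal as the ChIP pileup at the summit, the fold enrichment as a ratio to the background, q as −log10 values, and positions, lengths and distances in bp, all made by the authors. Library totals cannot be read from it, so depth is given as pileup.

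Peaks were taken by region class. The background was derived as (pileup + 1) / fold, and is the caller's local background plus 1. Shares carry Wilson 95% intervals and medians carry intervals from order statistics; both were tested on simulated data. For a count of 0 the limit given is 3 counts of the total. No test was run, since each group has 1 library, and neighbouring peaks are not independent. The 17 function lists are words matched in names. Members and lists were chosen with earlier results of these data known. Genes named were the 12 highest peaks of each subgroup, the 10 highest with a name, genes with 2 or more such peaks, up to 4 leaders of each list, every redox member, the longest, highest and nearest peaks, and genes sharing a best match. Part of the peak table had been read in the study's supplement before that rule was written, not all genes it selects are reported here, and some others were named after their values were seen. Alternatives were 1 peak per gene, a −log10 q of 3 or more, dropping peaks whose background was above 10.8 fragments, Swiss-Prot names alone and, added later, leaving out K08826-matched genes. The reference gene table is of another assembly, none of whose symbols match the gene identifiers, so no sequence is shown. Values were computed in Python 3.11.15 with SciPy 1.17.1, NumPy 2.4.6 and pandas 2.3.3, and drawn with Matplotlib 3.10.9.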

Additional observations from a re-analysis of the deposited data

How the results depend on the processing

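No paired analysis was possible because there is 1 ChIP and 1 input library and a single peak list. With a −log10 q of at least 3 (128 exon and 53 downstream peaks), the median fold was 4.84 in exon peaks and 5.26 in downstream peaks, at least 5-fold was reached by 45.3% and 56.6%, and the median exon length was 332 bp. That setting removes low peaks by construction. The other 6 of the 11 results stayed within their intervals there, as did all 11 without peaks whose background was above 10.8 fragments, with 1 peak per gene, and without K08826-matched genes, a setting chosen after seeing the data. With Swiss-Prot names alone, 10 of 34 list shares left their intervals, among them kinases and phosphatases in exon peaks at 13.2% and extracellular matrix at 6.14%. Over all peaks with a Swiss-Prot name, the shares of these lists were 7.01% and 4.87%. The limits are the low pileups, the single pair of libraries and word-matched names.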
